A study of Homo sapiens with 6 samples.

Results

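The neurotrophins and their receptors were examined as 7 genes: the ligands BDNF, NTF3 and NTF4, the receptor tyrosine kinases NTRK2 and NTRK3, and the receptors NGFR and SORT1. Peaks were assigned to a gene when they shared at least 1 bp with its GRCh38 interval extended by 20 kb on each side. By this rule the 7 genes, of 19974 protein-coding genes on 23 chromosomes, held 80 of the 78694 peaks of H3K27ac and 39 of the 43677 peaks of CTCF. The peaks came from chromatin immunoprecipitation followed by sequencing (ChIP-seq) in cells labelled as neurons. They were grown from neural progenitors made of KOLF2.1J, a human reference line of induced pluripotent stem cells. No other treatment or genotype is given in the labels. There were 6 libraries: 2 for CTCF, a DNA-binding protein of chromatin loop anchors, 2 for H3K27ac, a histone acetylation of active promoters and enhancers, and 2 of input chromatin. One list per antibody covered both of its libraries, so no value has an error between replicates, no depth is known, and no test of a difference was possible. All libraries came from a single cell line, and whether replicates were separate cultures is not stated. In a bulk culture, strong signal in a few cells and weak signal in all cells cannot be told apart.

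Neurotrophins are secreted growth factors that support the survival, axon growth and synapses of neurons. They are made as precursors, cut by proteases, and signal through Trk receptor tyrosine kinases. NTRK2 encodes TrkB, the receptor of BDNF and of the NTF4 product, and NTRK3 encodes TrkC, the preferred receptor of the NTF3 product. NGFR, also called the low-affinity neurotrophin receptor, binds all mature neurotrophins. Together with sortilin, the product of SORT1, it binds their uncut precursors. BDNF has several alternative promoters, each spliced to a shared coding exon, and some of them respond to neuronal activity.

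RefSeq promoter windows (GRCh38.p14, 250 bases before to 50 bases from each listed start) matched 6 of the 7 genes with 15 windows in all. The entry for NGFR was missing. The 4 stretches of 250 bases that follow end at the base before a listed start and read 5′ to 3′ on the strand of the gene. They are shown to set their CG content (CG pairs in capitals) beside their acetylation. BDNF start 3 lay in the strongest H3K27ac peak of the 7 genes, and the CG-rich NTF3 start 1 had none near it. Of the other CG-rich starts shown, NTRK2 start 2 lay in an H3K27ac peak, and the window of SORT1 start 1 overlapped H3K27ac. Starts are numbered in the direction of transcription. BDNF start 3 is chr11:27719567-27719816 on the minus strand, NTF3 start 1 is chr12:5431858-5432107 on the plus strand, NTRK2 start 2 is chr9:84669783-84670032 on the plus strand, and SORT1 start 1 is chr1:109397919-109398168 on the minus strand.
BDNF start 3: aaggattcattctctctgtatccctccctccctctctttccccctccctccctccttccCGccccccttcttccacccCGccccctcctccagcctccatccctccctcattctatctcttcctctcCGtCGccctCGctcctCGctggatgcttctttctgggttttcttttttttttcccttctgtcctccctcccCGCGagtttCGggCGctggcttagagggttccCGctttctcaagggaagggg
NTF3 start 1: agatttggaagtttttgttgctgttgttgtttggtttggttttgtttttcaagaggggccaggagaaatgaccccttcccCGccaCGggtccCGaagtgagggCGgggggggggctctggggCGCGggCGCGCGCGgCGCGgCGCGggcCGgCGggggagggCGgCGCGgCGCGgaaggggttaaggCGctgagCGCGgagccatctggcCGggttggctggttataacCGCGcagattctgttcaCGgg
NTRK2 start 2: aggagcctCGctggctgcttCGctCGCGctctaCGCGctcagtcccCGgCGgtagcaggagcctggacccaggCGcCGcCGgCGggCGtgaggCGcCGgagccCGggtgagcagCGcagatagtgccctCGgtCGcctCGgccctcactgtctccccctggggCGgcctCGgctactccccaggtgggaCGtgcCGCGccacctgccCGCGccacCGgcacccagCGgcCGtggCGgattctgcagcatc
SORT1 start 1: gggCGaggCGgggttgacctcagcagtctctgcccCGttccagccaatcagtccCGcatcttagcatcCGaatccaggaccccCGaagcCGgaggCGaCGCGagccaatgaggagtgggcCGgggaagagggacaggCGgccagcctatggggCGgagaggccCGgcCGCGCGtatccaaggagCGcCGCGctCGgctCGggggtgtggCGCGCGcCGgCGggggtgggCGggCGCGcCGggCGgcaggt
Over the whole window of 300 bases, NTF3 start 1 held 32 CG pairs, NTF4 27, NTRK3 30, NTRK2 start 2 38 and SORT1 start 1 41. BDNF start 3 held 17, below the median of 21 over 22132 windows of protein-coding genes. Of the 8072 windows with 27 or more CG pairs, 80.5% overlapped an H3K27ac peak, against 58.0% of all windows. The 7 genes had 8 of 15 windows with such an overlap, and 3 of the 5 with 27 or more CG pairs. The exceptions among these 5 were the CG-rich windows of NTF3 start 1 and NTF4.

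The windows were also searched on both strands for core letters of the CTCF motif (CC, 3 free bases, AG, 2 free bases, GGC), for the cAMP response element TGACGTCA and for its shortened form TGACG. The core was found in 2 of the 15 windows, at BDNF start 4 (chr11:27701622-27701871, minus strand) and at NTRK3 start 1 (chr15:88256740-88256989, minus strand). Both are shown with the match in capitals, because a CTCF peak was centred on one match and no CTCF peak touched the other.
BDNF start 4: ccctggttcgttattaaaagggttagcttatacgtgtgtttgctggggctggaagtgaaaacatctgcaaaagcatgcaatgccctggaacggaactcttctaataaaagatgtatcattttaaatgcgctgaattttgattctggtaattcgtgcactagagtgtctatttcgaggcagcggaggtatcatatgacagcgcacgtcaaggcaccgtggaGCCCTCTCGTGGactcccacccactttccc
NTRK3 start 1: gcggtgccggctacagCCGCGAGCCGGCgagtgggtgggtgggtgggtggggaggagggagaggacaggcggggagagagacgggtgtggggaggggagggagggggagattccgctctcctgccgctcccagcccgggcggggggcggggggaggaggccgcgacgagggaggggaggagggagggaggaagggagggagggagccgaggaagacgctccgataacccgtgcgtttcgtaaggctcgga
At BDNF the match lay on the strand opposite to the gene, 19 to 30 bases before the start (chr11:27701640-27701651), and the CTCF summit fell inside it. At NTRK3 the match lay 223 to 234 bases before the start, in the gap between a pair of H3K27ac peaks, and the window overlapped no CTCF peak. Among all windows, 12.4% held the core letters. A CTCF peak overlapped 37.0% of the windows with these letters, 18.3% of those without and 20.6% of all. Among the 15 windows it was 4, at BDNF starts 3 and 4 and NTRK2 starts 2 and 3, of which BDNF start 4 alone held the letters. The full cAMP response element, present in 2.26% of windows, was in none of the 15. The shortened form, present in 27.9% (windows with the full element included), was found once at BDNF start 4 and 2 times at NTRK2 start 3. A match is a run of letters, and whether a factor bound it was not tested.

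The lists are on different scales. The H3K27ac value is a fold enrichment at the summit, with a list median of 4.74 and a maximum of 98.9. The CTCF value is the authors' signal on an unstated scale, with a list median of 91.0 and a maximum of 492. A percentile is the rank of a value from the lowest up, as a share of its list, with tied values given their mean rank. Of the neuron markers, 12 of 12 had an H3K27ac peak by the same rule, as did 8 of 8 neural progenitor, 7 of 8 astrocyte, 7 of 8 oligodendrocyte lineage, 5 of 6 neural crest and Schwann cell, and 4 of 8 pluripotency markers. Even 5 of 6 markers of other organs had one, and the share over all protein-coding genes was 81.3%, so presence within 20 kb separates cell types poorly. The median of the highest fold enrichment was 17.9 for the neuron markers, 39.9 for the progenitor markers, 20.6 for the astrocyte markers and 6.18 for the oligodendrocyte lineage markers with a peak. Likewise it was 14.1 for the neural crest and Schwann cell, 9.96 for the pluripotency and 4.64 for the other organ markers. Over all protein-coding genes with a peak it was 18.3, close to the value of the neuron markers. The part of cells other than neurons in the values that follow was not tested.

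Of the 7 genes, 5 had an H3K27ac peak within 20 kb (81.3% of all protein-coding genes did) and 7 had a CTCF peak (83.0% of all). NTF3 and NGFR were the genes without H3K27ac. The numbers of H3K27ac peaks were 52 at NTRK2, 13 at NTRK3, 9 at SORT1, 5 at BDNF and 1 at NTF4. The order by highest fold enrichment was another one: 49.4 at BDNF, 21.8 at NTRK3, 21.3 at NTRK2, 17.4 at NTF4 and 14.7 at SORT1. NTRK3 and NTRK2 are neighbours in that order with nearly equal values, and without replicates no neighbours in it can be told apart by a test. The median fold enrichment of the 80 peaks was 4.55, close to the list median of 4.74, and 7 of them (8.75%) were in the top 10% of the list. For CTCF the numbers were 10 at BDNF, 8 each at NTRK2 and NTRK3, 5 at NGFR, 4 at NTF3, 3 at NTF4 and 1 at SORT1. Their median signal value was 77.0 against 91.0 in the list, and 4 of 39 (10.3%) were in its top 10%. As sets, the peaks of either mark were thus close to the level of their list, and single peaks stood out.

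**Figure D1:**
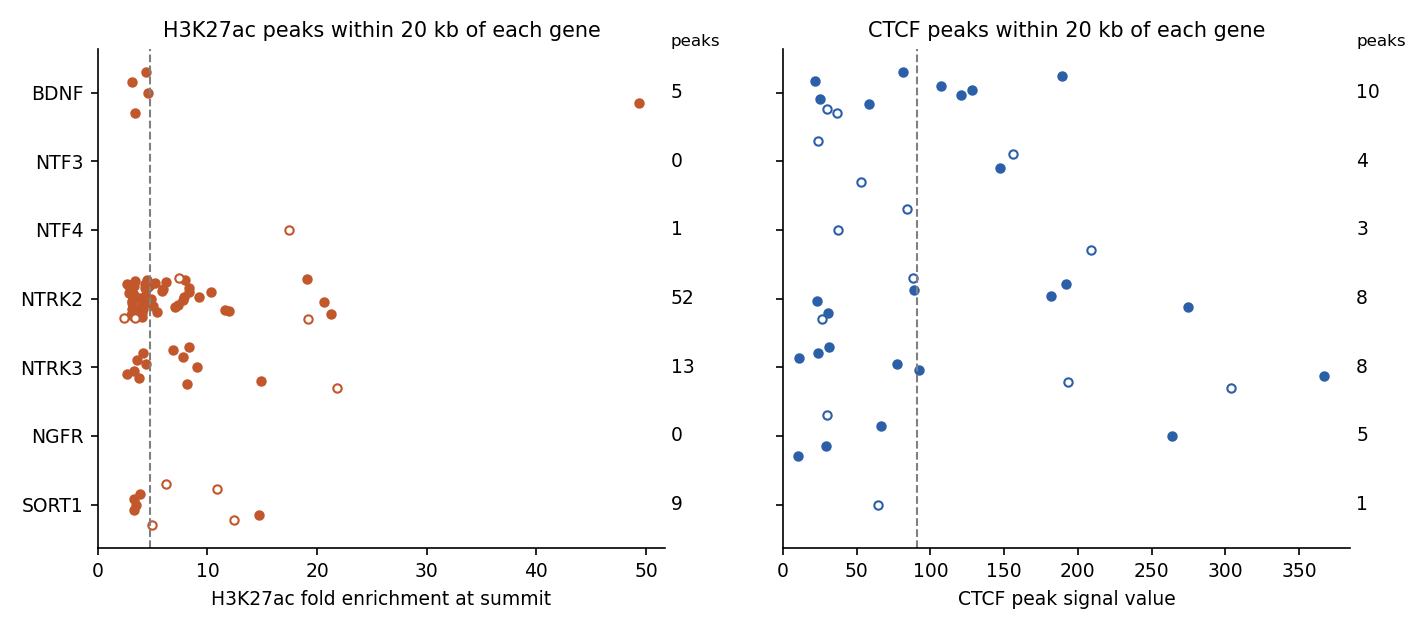
Every peak within 20 kb of the 7 genes, by value (x axis: H3K27ac fold enrichment at the summit on the left, CTCF signal value on the right). Filled points overlap the gene interval, open points lie in the flanks, dashed lines mark the list medians of 4.74 and 91.0, and the numbers at the right are peaks per gene. One BDNF peak at 49.4 stands apart on the left, and NTF3 and NGFR have no H3K27ac peak.

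Among the ligands, BDNF (gene 627, chr11:27654893-27722030, minus strand) had the strongest acetylation. BDNF supports neuronal survival and synaptic plasticity. Its peak at chr11:27717591-27720372 was 2782 bp wide with a fold enrichment of 49.4, at percentile 99.3 of the list, and a −log10 q of 186. The summit lay 45 bp from listed start 3, 2.51 kb downstream of the outermost start. Of 19974 protein-coding genes, 1018 had a higher maximum. The other 4 BDNF peaks were weak, with fold enrichments of 4.61, 4.37, 3.37 and 3.14, all below the list median. The peak of 4.61 lay 61 bp from start 4, and the peak of 3.37 lay 122 bp from start 2. The nearest H3K27ac peak was 1373 bp from start 1 and 39754 bp from start 5, the start farthest downstream.

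BDNF also held 10 CTCF peaks, more than 99.6% of the 2936 protein-coding genes whose windows were within 20% of its length, which had a median of 2. The signal values were 189, 128, 121, 107, 81.6, 58.6, 36.5, 29.6, 25.3 and 22.0. None was in the top 10% of the list, and the strongest stood at percentile 77.3. The 4 weakest had the width of 800 bp that recurs in 33.4% of the CTCF list, and 2 of these overlapped each other just upstream of start 1, at 29.6 and 36.5. The peak of 107 (chr11:27701438-27701837) covered start 4, and the peak of 25.3 covered start 3 with its summit 38 bp from that start. Peaks of both lists covered start 3, and at starts 2 and 4 the nearest H3K27ac peak did not contain the start. In all, 5 of the 10 CTCF peaks met H3K27ac, and each of the 5 H3K27ac peaks touched at least 1 of CTCF. In the lists as a whole, the share was 28.1% for CTCF and 16.2% for H3K27ac. An overlap of 1 bp was enough for these counts. Of the 5 BDNF CTCF peaks that met H3K27ac, the peak of 25.3 alone had its summit inside an H3K27ac peak. The long 3′ part of the gene, where it overlaps the antisense transcript BDNF-AS, held 1 CTCF peak (81.6) and no H3K27ac peak.

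**Figure D2:**
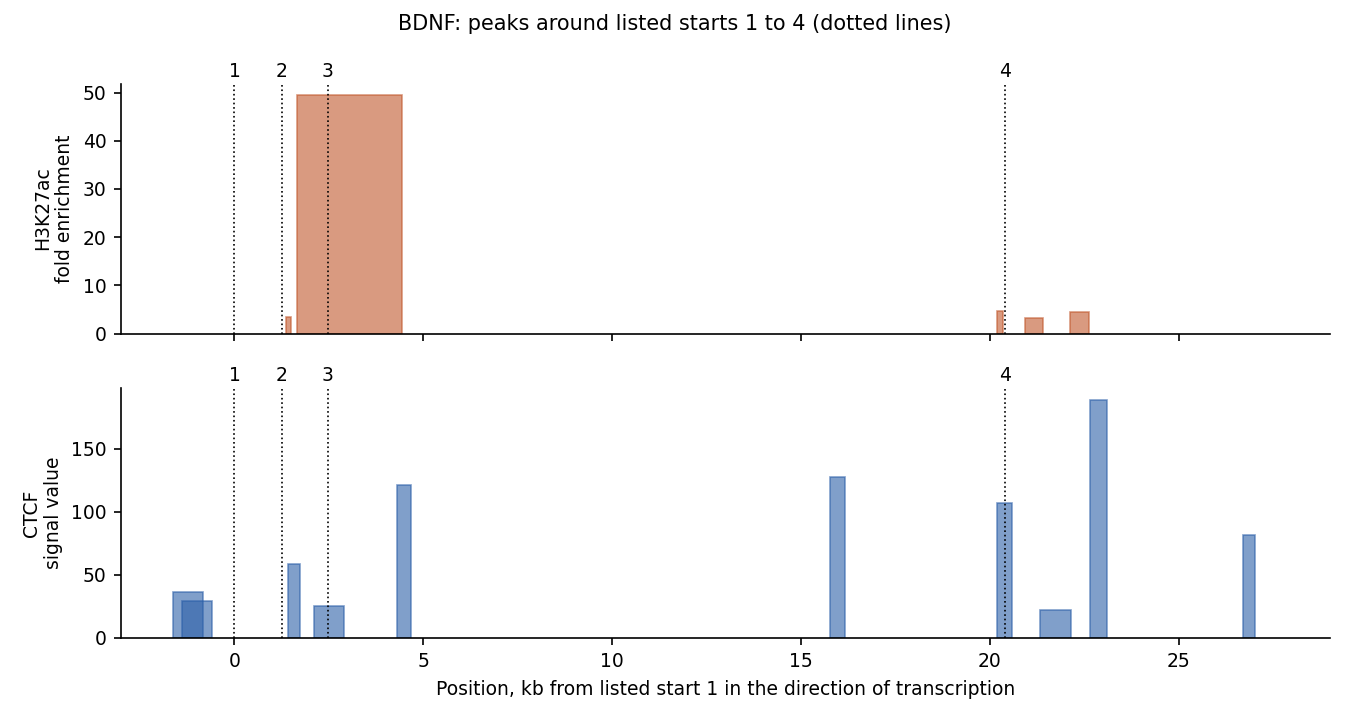
BDNF peaks drawn to scale, from 3 kb before to 29 kb after listed start 1 in the direction of transcription (x axis, kb). Bars span each peak and their height is its H3K27ac fold enrichment (top) or CTCF signal value (bottom). Dotted lines mark listed starts 1 to 4, and start 5 lies beyond the right edge. The tall H3K27ac bar of 49.4 covers start 3 only, whereas the 10 CTCF bars spread over both clusters of starts.

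NTF3 (gene 4908, chr12:5430332-5495299, plus strand), which encodes neurotrophin-3, had no H3K27ac peak within 20 kb. The nearest lay 71.9 kb away in ANO2 and had a fold enrichment of 5.57. Of 3017 genes with windows of similar length, 10.9% likewise had none. Its 4 CTCF peaks had signal values of 156, 147, 52.8 and 23.4, and none overlapped H3K27ac. The peaks of 156 and 23.4 overlapped each other 3.18 to 3.56 kb upstream of start 1, and the peak of 147 lay 10.5 kb downstream of it. NTF3 was thus present in the CTCF list alone, and its strongest peak stood at percentile 69.5 of it.

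NTF4 (gene 4909, chr19:49058284-49065035, minus strand), the shortest of the 7 at 6.75 kb, had no peak of either list inside its own interval. Its product is the other TrkB ligand. The single H3K27ac peak in its window (chr19:49084459-49086133, fold enrichment 17.4, percentile 90.9) lay 19.4 kb from the gene, at the edge of the 20 kb limit, and overlapped a promoter window of SNRNP70, a gene of the splicing machinery. The next H3K27ac peak, outside the limit, was 48.9 kb away with a fold enrichment of 3.34. The 3 CTCF peaks had signal values of 209, 83.8 and 37.2. They lay 10.2 kb and 9.30 kb upstream of the start (209 and 37.2) and 8.58 kb downstream of it, where the peak of 83.8 overlapped CGB7.

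Among the receptors, NTRK2 (gene 4915, chr9:84668522-85027054, plus strand, 359 kb) had the most H3K27ac. Its 52 peaks were exceeded by 32 of 19974 protein-coding genes and by 8 of the 455 genes with windows of similar length, whose median was 9 peaks. They covered 38207 bp, 9.59% of the window. NTRK3 (gene 4916, chr15:87859751-88256739, minus strand, 397 kb) is of similar length, and its 13 peaks covered 6125 bp, 1.40% of the window. The median over 393 genes of similar length was 10, so NTRK3 sat near the middle of its length class. Per 100 kb of window, NTRK2 held 13.0 H3K27ac peaks and NTRK3 2.97. For CTCF both had 8 peaks.

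The NTRK2 peaks were spread along the gene. With gaps over 5 kb as separators they formed 19 groups, the largest of 8 peaks, and the longest stretch without one was 47.1 kb. The 4 highest had fold enrichments of 21.3, 20.6, 19.2 and 19.1. The peak of 19.1 (chr9:84668500-84672695, 4196 bp wide) covered listed starts 1 to 3. The peak of 20.6 (chr9:84859547-84863042) lay 191 kb downstream of start 1, and the peak of 21.3 (chr9:84989485-84992844) 322 kb downstream. The peak of 19.2 (chr9:85039712-85042046) lay beyond the 3′ end, 12.7 kb outside the interval. The fifth in rank (chr9:84974560-84975639), at percentile 84.5 of the list, lay 306 kb downstream. Peaks at and far from the promoter therefore had similar maxima. Of the 80 peaks of all members, 6 (7.50%) were at least 2 kb wide, against 4.44% of the whole list, and 5 of these belonged to NTRK2. The lowest NTRK2 peak had a fold enrichment of 2.41, and 24 of the 52 lay above the list median. Within 50 to 200 kb downstream there were 20 peaks, and 19 lay over 200 kb downstream.

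At NTRK3 the acetylation was concentrated at the 5′ end. The highest peak (21.8, chr15:88256974-88258797) lay just upstream of the start. The next (14.9, chr15:88255310-88256196) had its summit 0.728 kb downstream, and the peak of 8.14 between them (chr15:88256277-88256802) contained the start. All 3 overlap the antisense gene NTRK3-AS1, and a ChIP peak cannot be assigned to one strand. The remaining 10 peaks had fold enrichments from 2.69 to 9.04. The strongest of these, 9.04 and 8.31, lay 141 kb and 381 kb downstream. The peak of 2.69 was the single one of the 80 with a q-value above 0.05. Over 50 kb downstream, NTRK3 thus had 9 peaks with a highest value of 9.04, where NTRK2 had 39 with a highest value of 21.3.

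The CTCF peaks of the kinase receptors also differed in place. At NTRK2 the signal values were 275, 192, 182, 88.6, 88.2, 30.7, 26.1 and 22.9. The peak of 192 lay 0.873 kb upstream of start 1, the peak of 88.6 covered start 2, and the peak of 182 lay 28.4 kb downstream. From there, 235 kb of the gene held no CTCF peak, and 35 of the 52 H3K27ac summits (67.3%) fell in this stretch. The strongest, 275 (chr9:84954030-84954511), lay 285 kb downstream and overlapped no H3K27ac. At NTRK3 the signal values were 367, 304, 193, 92.1, 77.0, 31.0, 23.6 and 10.8. The peak of 367 (chr15:88246736-88247241) stood at percentile 99.5 of the list, 9.75 kb downstream of the start, and 390 of 19974 genes had a higher maximum. The peaks of 193 and 304 lay 1.73 kb and 18.0 kb upstream. In all, 7 of the 8 lay within 20 kb of the NTRK3 start, and the other (31.0) 229 kb downstream. Among the 7, the peaks of 23.6 and 10.8 were 800 bp wide and overlapped each other. The latter had a −log10 q of 0.0602, a q-value above 0.05. NTRK3 had 212 kb without CTCF, with 3 H3K27ac summits in it. CTCF overlapped H3K27ac in 4 of 8 peaks at NTRK2 and in 1 of 8 at NTRK3.

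**Figure D3:**
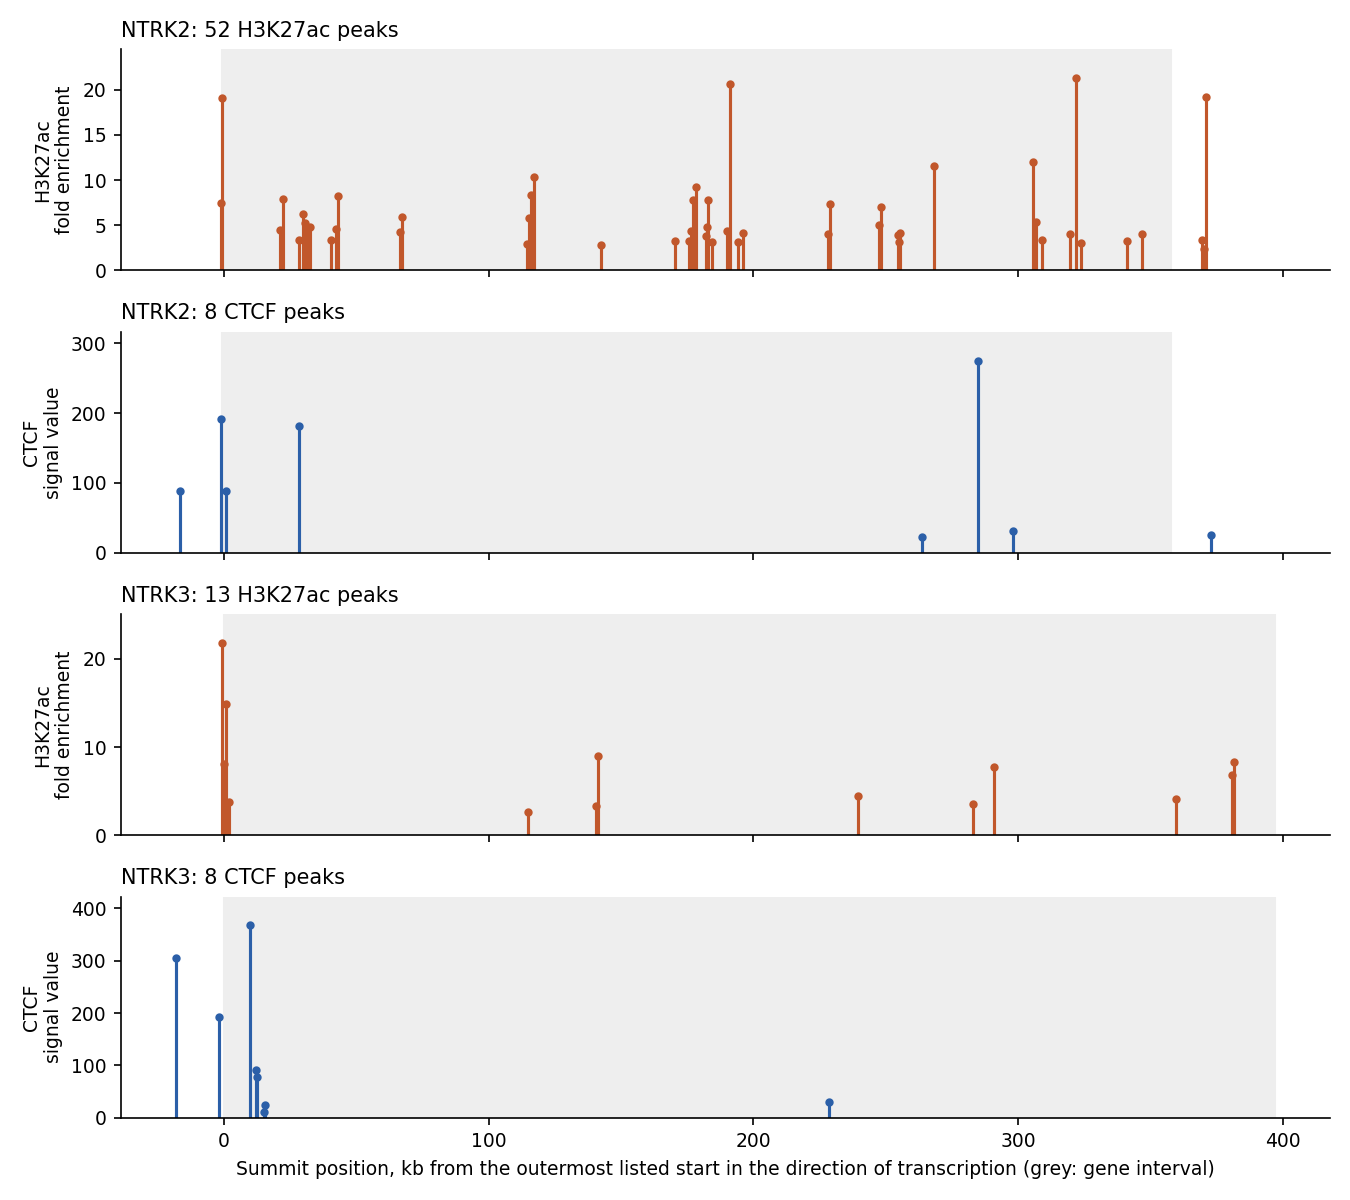
Peak summits along NTRK2 and NTRK3, as distance in kb from the outermost listed start in the direction of transcription (x axis), with grey for the gene interval. Stem height is the H3K27ac fold enrichment or the CTCF signal value. NTRK2 has 52 H3K27ac peaks along the gene, with a stretch of 235 kb that holds no CTCF peak, and the strongest of the 13 H3K27ac peaks of NTRK3 lie at its start.

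NGFR (gene 4804, chr17:49495293-49515008, 19.7 kb) had no H3K27ac peak within 20 kb. The nearest lay 79.8 kb away with a fold enrichment of 2.92. Of 6836 genes with windows of similar length, 19.1% had none. It held 5 CTCF peaks, more than 87.8% of those genes, which had a median of 2. The signal values were 264, 66.1, 30.1, 28.8 and 10.2, and 4 of the 5 had the recurrent width of 800 bp. The strong peak (chr17:49496319-49496839, percentile 91.0) lay inside the gene near its lower-coordinate end, and the peak of 66.1 spanned that end. The peaks of 28.8 and 10.2 overlapped each other at the opposite end, and the latter had a −log10 q of 0.0380. NGFR is also a marker of neural crest and Schwann cells. Of 6 other markers of those cells, 5 had an H3K27ac peak and FOXD3 had none. Over all protein-coding genes the share with a peak was 81.3%. The median highest fold enrichment of the 5 was 14.1, against 18.3 over all protein-coding genes with a peak. The maximum was 28.8 at S100B, which astrocytes also express. SOX10, another of the 6, was also counted with the oligodendrocyte lineage markers.

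SORT1 (gene 6272, chr1:109309575-109397918, minus strand, 88.3 kb), whose product sorts proteins between the Golgi and endosomes besides binding neurotrophin precursors, had 9 H3K27ac peaks and a single CTCF peak. The fold enrichments were 14.7, 12.4, 10.9, 6.18, 4.98, 3.89, 3.47, 3.31 and 3.29. The peaks of 14.7 (chr1:109397547-109397897) and 12.4 (chr1:109398163-109399012) lay on either side of start 1, which fell 21 bp outside the first. The peak of 3.29 contained start 2. The peaks of 10.9 and 6.18 overlapped MYBPHL, beyond the 3′ end. The peak of 4.98 had its summit 1.34 kb upstream of start 1 and overlapped PSMA5, a proteasome gene next to SORT1. Thus 5 peaks lay in SORT1 itself, 4 of them with values under the list median. The CTCF peak (chr1:109399392-109399706, signal value 64.3, percentile 38.0) had its summit 1.65 kb upstream of start 1. It overlapped PSMA5 and the H3K27ac peak of 4.98. Its signal value was the lowest CTCF maximum of the 7 genes, and 8.43% of the 2301 genes with windows of similar length had no CTCF peak at all.

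Taking listed starts rather than windows, the outermost start lay inside an H3K27ac peak in 2 of the 6 genes with a listed start, NTRK2 and NTRK3. Over all protein-coding genes with a listed start the share was 42.1%. Counting any listed start added BDNF (start 3) and SORT1 (start 2, in a weak peak of 3.29 at percentile 18.2). The share over all genes was not computed for any listed start, and genes with more listed starts have more chances of a hit. Together, 11 of the 39 CTCF peaks were shared with H3K27ac, 28.2% against 28.1% of the whole CTCF list. Likewise 11 of the 80 of H3K27ac were shared with CTCF, 13.8% against 16.2%. Both shares are near those of the lists. The overlaps were at BDNF (5), NTRK2 (4), NTRK3 (1) and SORT1 (1). The recurrent width of 800 bp was held by 17 CTCF peaks (43.6%, against 33.4% of the whole CTCF list). Their median signal was 28.8, against 138 in the other 22.

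**Figure D4:**
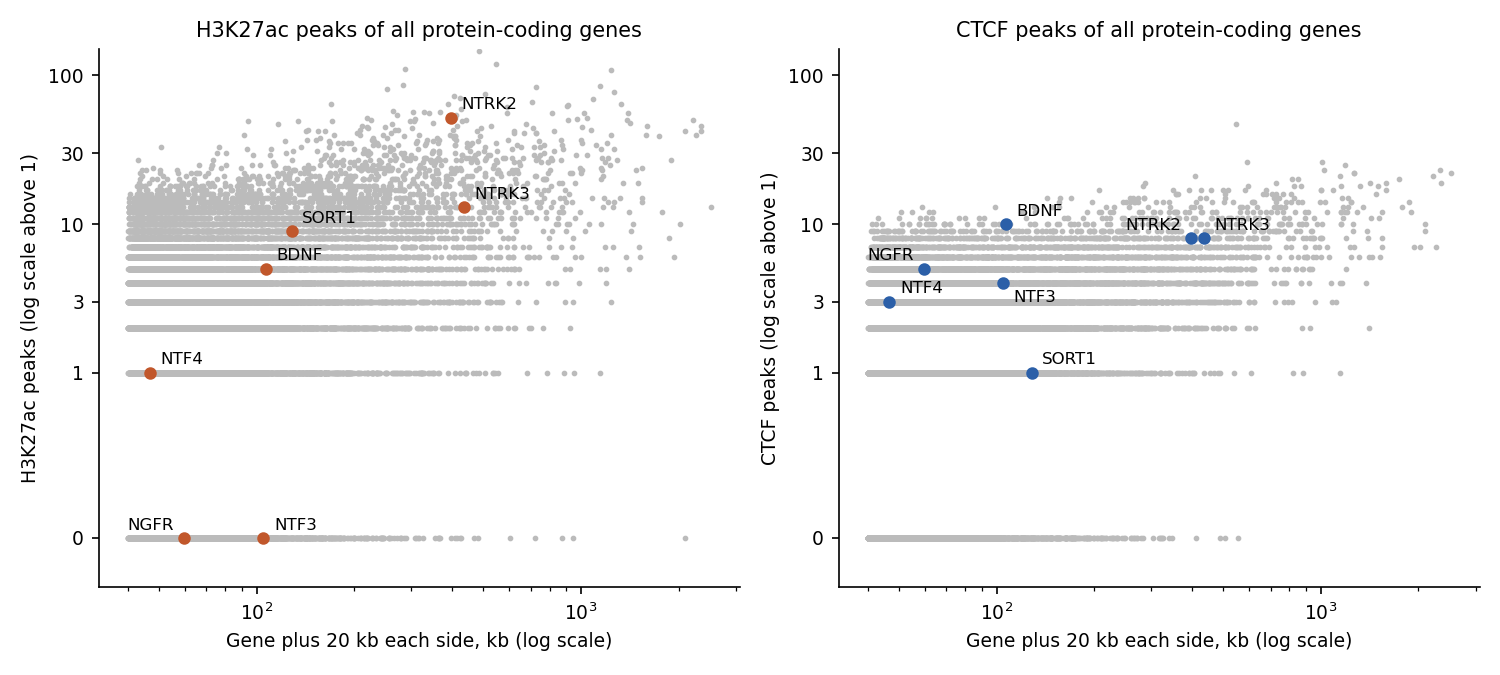
Number of H3K27ac peaks (left) and CTCF peaks (right) against the length of the gene with 20 kb on each side (x axis, kb, log scale), for 19974 protein-coding genes in grey and the 7 members in colour. The y axes are logarithmic above 1. NTRK2 with 52 H3K27ac peaks lies near the upper edge for its length and NTRK3 with 13 in the middle, whereas for CTCF it is BDNF with 10 peaks that lies near the edge.

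Other genes of the neurotrophin pathway were read by the same rule. Of 39, 38 had an H3K27ac peak (81.3% of all protein-coding genes did). For CTCF the number was 37 (83.0% of all), without BEX3 and RIPK2. The median of the highest fold enrichment was 19.1 over those 38 genes, 21.3 over the 5 members with a peak and 18.3 over all protein-coding genes with one. Among 21 receptor adaptors and effectors the median was 23.9 and all had a peak. The 3 highest values were 46.7 at SHC1, an adaptor that binds activated Trk receptors, 46.5 at PLCG1, a phospholipase that Trk receptors activate, and 42.9 at ARHGDIA, which encodes an NGFR partner. CREB1, the transcription factor of the cAMP response element, had 41.9. The 6 relatives of the ligands and receptors were lower, with a median of 10.7. Among them, the sortilin relatives SORCS1 and SORCS2 had 25 and 61 peaks in long windows of 647 and 590.3 kb, with highest values of 13.1 and 21.6. The sortilin relatives SORCS3 and SORL1 had fewer, 7 peaks in 664 kb and 9 in 221 kb. The 4 processing proteases, which cut neurotrophin precursors or other prohormones, had a median of 8.32 and a highest value of 23.3 at FURIN. The highest CTCF signal values were 407 at LINGO1, an NGFR partner, 379.9 at MAPK7 and 360.3 at FRS3. Of 16 neurotrophic factors and receptors of the GDNF and CNTF families and relatives, 12 had an H3K27ac peak, near the 81.3% of all protein-coding genes. GDNF, GFRA3, GFRA4 and CNTF had none. The median of the highest fold enrichment was 23.5 over the 12. The highest values within 20 kb of ARTN (73.3) and PSPN (58.2), ligands of the GDNF family, were above the 49.4 of BDNF. Whether these peaks, or the highest peaks of the pathway genes named above, lay at the genes themselves or at neighbouring genes was not examined.

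For each member, the most similar protein-coding gene was sought over 4 percentiles (the number of peaks and the highest value in each of the 2 lists). The distance is Euclidean, in percentile points. It was TGFBRAP1 for BDNF (5.73), DAW1 for NTF3 (0.240), SIPA1L3 for NTRK2 (3.17), TBC1D22A for NTRK3 (3.04) and COL22A1 for NGFR (0.155). For NTF4 it was the neighbouring KCNA7 (0), whose window holds the same peaks, and for SORT1 it was H1-5 (4.56). SIPA1L3 had 23 H3K27ac peaks (highest 21.5) where NTRK2 had 52, so likeness in percentiles is not likeness in counts. TBC1D22A had 15 H3K27ac peaks (highest 22.5) and 7 CTCF peaks (highest 364), near the 13 and 8 of NTRK3. For SORT1, 2 genes tied at that distance.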

How the data were processed

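ChIP-seq was analysed from 2 peak lists of KOLF2.1J neurons, 1 per antibody, each deposited by the authors as a single list for 2 libraries, so 0 columns of single samples were used. The submitters' processing notes name hg38 and cutadapt 1.16. The aligner, peak caller and duplicate removal are not given in the sources used here, and neither are the read depths, so counting error cannot be stated. The deposited CTCF column 7 holds a signal value on an unstated scale. The deposited H3K27ac column 7 was read as a fold enrichment (ratio), judged from its values and layout. The q-values come as −log10 in both deposited lists, and the deposited display score was not used.

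Positions were converted to 1-based coordinates. Genes and promoter windows are those of RefSeq GRCh38.p14, and 1 marker was matched by an older symbol (TDGF1, now CRIPTO). Overlap meant at least 1 bp. Counts were set beside protein-coding genes whose extended windows were within 20% in length. No test was run, because the lists hold no replicate values. The members and the lists of pathway and marker genes were chosen with earlier results of these data known. All members were named, with all peaks up to 10 per list and otherwise the 5 highest and the one nearest the start. In the pathway list the 3 highest genes of each list were named, some genes are not reported here, and the other genes named there were chosen after their values were seen. Interval counting was tested on simulated data. Alternatives were other extensions (0 or 50 kb), the strongest 50% of each list, q under 0.01, other treatments of CTCF rows and other definitions of overlap and start. Python 3.11.15, pandas 2.3.3 and NumPy 2.4.6 were used.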

Additional observations from a re-analysis of the deposited data

How the results depend on the processing

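No paired analysis was possible because each list covers both replicates together, and leaving out a replicate could not be run for the same reason. Of 71 alternative values, 40 were counts and medians of the members. Of these, 24 were unchanged or, for counts, within 1.5 times, and 16 moved. Of 21 highest values of single members, 15 were unchanged and 6 moved. The 10 counts of other pathway genes stayed within 1.5 times. In the strongest 50% of each list, the members' peaks numbered 38 for H3K27ac (80 in full) and 15 for CTCF (39 in full), the medians were 8.22 and 189, and 3 CTCF peaks overlapped H3K27ac (11 in full), as fewer peaks were left. Without extension the CTCF peaks numbered 25, and the medians were 4.39 for H3K27ac and 81.6 for CTCF. With 50 kb the CTCF median was 82.7. With q under 0.01 the medians were 4.81 and 88.6. Leaving out CTCF rows of 800 bp gave 22 peaks with a median of 138, and merging overlapping rows gave a median of 83.8. With the CTCF summit required inside the H3K27ac peak, 4 overlaps were counted. With any listed start, 4 genes had a start in an H3K27ac peak (2 with the outermost), a count without a share over all genes beside it. NTF3 and NGFR had no H3K27ac peak in any alternative run, but no alternative could have added one. Their nearest peaks lay 71.9 kb and 79.8 kb away, beyond the widest extension of 50 kb. With 50 kb the highest CTCF value rose from 64.3 to 407 at SORT1 and from 209 to 384 at NTF4, from 264 to 357 at NGFR, and the highest H3K27ac value from 14.7 to 34.8 at SORT1. Without extension the highest value was 14.9 for H3K27ac at NTRK3 and 147 for CTCF at NTF3. There NTF4 had no value in either list and SORT1 none for CTCF. Depth is unknown, so an absent peak shows only that none was listed.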
